A study of Mus musculus with 3 samples.

Results

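The long non-coding RNAs (lncRNAs) *Malat1*, *Meg3*, *Neat1*, *Snhg11*, *Kcnq1ot1* and *Gas5* were chosen by name as well-known non-coding transcripts of islet cells, 6 genes among the 17226 listed in at least 1 of the 3 count tables. *Malat1*, *Meg3*, *Neat1*, *Snhg11* and *Kcnq1ot1* had a row in all 3 tables, and these 5 are described here. *Gas5* had no row under that symbol and was not analysed here. Counts of unique molecular identifiers (UMIs, molecular tags that mark each captured RNA once) were summed over beta, alpha and delta cells of each library, and over the cells of the 1-week library in which mitochondrially encoded genes made up 15% or more of UMIs.

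The study inactivated Taf4, a subunit of the general transcription factor TFIID, in beta cells of adult C57/Bl6 mice. Floxed *Taf4* alleles were deleted by a tamoxifen-dependent Cre under the insulin promoter (*Ins1*::Cre-ERT2), so the deletion is directed to beta cells and not to alpha or delta cells. The WT library came from 300 islets of 1 *Taf4* +/+ mouse, and each mutant library, taken 1 week or 5 weeks after inactivation, from 300 islets pooled from 2 mice. According to the study, mice of both genotypes received tamoxifen. All libraries were made from live cells sorted out of dissociated islets, with the 10X Genomics Chromium 3′ assay. With 1 library per condition there is no replicate and no test between conditions, and genotype, animal, islet isolation and library cannot be told apart. Intervals in parentheses are exact 95% intervals for counting error only.

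An lncRNA is transcribed and processed like an mRNA but codes for no known protein, and many act in the nucleus. *Malat1* RNA collects in nuclear speckles, which store splicing factors, and *Neat1* RNA is the scaffold of paraspeckles. *Meg3* and *Kcnq1ot1* are imprinted, expressed from the maternal and the paternal copy respectively, *Kcnq1ot1* being the antisense transcript that silences its neighbours on the same chromosome, and *Snhg11* is a spliced RNA named as a host of small nucleolar RNAs. Both *Malat1* and the long form of *Neat1* end without a usual poly(A) tail, so a 3′ assay primed on poly(A) reads them through shorter forms or internal A-rich stretches, and these counts do not tell the isoforms apart.

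In GRCm38.p6, the mm10 assembly to which the reads were aligned, RefSeq places *Malat1* on chromosome 19 from 5795690 to 5802672 and *Neat1* from 5824708 to 5845480, 22035 bases away. *Meg3* lies on chromosome 12 from 109540996 to 109571729, *Snhg11* on chromosome 2 from 158375713 to 158386474, and *Kcnq1ot1* on chromosome 7 from 143213111 to 143296547, 533384 bases from *Ins2*. *Kcnq1ot1* runs antisense within *Kcnq1*, and whether the counting used strand is not given in the sources used here. Because TFIID recognises core promoters, the RefSeq promoter windows of the 4 members that have an entry are shown, 250 bases before to 50 bases after the annotated start, 5′ to 3′ on the gene's strand. Capitals mark matches on either strand to the TATA box (TATAAA), to the CCAAT box by its letters, or to TGACG, the core of the cAMP response element. The GC box (GGGCGG) was searched too and had no match in these windows.
Malat1 promoter (chr19:5802623-5802922, minus strand): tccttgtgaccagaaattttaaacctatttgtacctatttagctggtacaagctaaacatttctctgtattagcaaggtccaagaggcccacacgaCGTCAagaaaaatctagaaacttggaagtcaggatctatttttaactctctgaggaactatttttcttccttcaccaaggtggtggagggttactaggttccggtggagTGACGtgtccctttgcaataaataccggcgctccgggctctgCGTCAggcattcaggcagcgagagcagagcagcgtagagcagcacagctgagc
Meg3 promoter (chr12:109540746-109541045, plus strand): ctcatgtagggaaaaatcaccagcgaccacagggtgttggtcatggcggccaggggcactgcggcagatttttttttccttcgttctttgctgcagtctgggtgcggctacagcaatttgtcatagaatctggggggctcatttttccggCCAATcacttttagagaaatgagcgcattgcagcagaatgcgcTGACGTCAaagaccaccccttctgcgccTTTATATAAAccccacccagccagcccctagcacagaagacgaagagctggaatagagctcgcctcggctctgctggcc
Snhg11 promoter (chr2:158375463-158375762, plus strand): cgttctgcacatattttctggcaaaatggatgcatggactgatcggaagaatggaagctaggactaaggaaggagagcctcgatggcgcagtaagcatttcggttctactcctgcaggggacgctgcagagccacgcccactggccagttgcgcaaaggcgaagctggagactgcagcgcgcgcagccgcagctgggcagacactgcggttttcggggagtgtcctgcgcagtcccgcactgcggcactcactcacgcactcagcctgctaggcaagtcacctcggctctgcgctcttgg
Kcnq1ot1 promoter (chr7:143296498-143296797, minus strand): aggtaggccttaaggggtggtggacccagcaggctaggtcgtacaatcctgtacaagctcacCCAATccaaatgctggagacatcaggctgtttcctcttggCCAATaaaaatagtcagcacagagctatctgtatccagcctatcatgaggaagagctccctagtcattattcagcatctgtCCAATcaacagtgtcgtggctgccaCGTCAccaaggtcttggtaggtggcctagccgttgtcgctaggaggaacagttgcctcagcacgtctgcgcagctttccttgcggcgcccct

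The *Meg3* window held the TATA box on the gene's strand with its first base at position -25 (-1 is the base before the start), overlapping a match on the other strand, the CCAAT box from -100 and an overlapping pair of TGACG matches from -57 to -50. The *Kcnq1ot1* window held 3 matches to the CCAAT box, from -188, -148 and -67, and 1 TGACG match. The *Malat1* window held 3 TGACG matches and none of the other letters, and the *Snhg11* window none of the 4 motifs. Of 32851 RefSeq promoter windows of the same length, 13.6% held the TATA box on either strand, 37.4% the CCAAT box, 20.8% TGACG and 35.7% the GC box, and 702 (2.14%) held the TATA box on the gene's strand with its first base between -45 and -20. RefSeq gives *Meg3* a second start, whose window held none of the 4 motifs.

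Depth differed between the libraries. There were 12000 barcodes in WT, 2295 at 1 week and 11229 at 5 weeks, with medians of 1396, 2759 and 2467 UMIs. The number of cell barcodes that libraries shared was between 2 and 33 for each pair. *Taf4* itself had only 102, 196 and 160 UMIs in the WT, 1-week and 5-week libraries (5.24, 8.47 and 4.06 in every 1000000 UMIs, written CPM below), which is too sparse to check the deletion, and the floxed exons are not resolved by a 3′ count. The WT library goes against its label in 1 respect: it is labelled male, but held 17357 *Xist* UMIs and 0 UMIs of the Y-linked *Ddx3y*, *Eif2s3y*, *Kdm5d* and *Uty*, while the mutant libraries held 17 and 11 *Xist* UMIs and 1488 and 1349 of *Ddx3y*. Sex therefore differs together with genotype in every comparison with WT. Exocrine RNA differed as well: 10 acinar marker genes together made up 4971 CPM in WT beta cells, all 10 detected, 15.9 CPM in 1-week and 573 CPM in 5-week beta cells. Its part in the lncRNA levels was not tested.

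Beta cells were taken as cells with *Ins2* at 20% or more and *Gcg* under 3% of UMIs, alpha cells as those with *Gcg* at 15% or more and delta cells as those with *Sst* at 5% or more. At 1 week the limits were 5%, 8% and 1.5%, in cells of 5000 or more UMIs. This gave 8271 beta, 2815 alpha and 621 delta cells in WT, 562, 175 and 38 at 1 week, and 5685, 3322 and 1443 at 5 weeks. At 5 weeks 202 cells met more than 1 of these rules, and delta cells carried 10.6% of their UMIs as *Ins2*. Markers were summed without *Ins2*, *Gcg* and *Sst*. The 10 beta markers, which include the hormone *Iapp*, summed to between 35330 and 88450 CPM in the beta classes. In the alpha classes 10 alpha markers summed to between 8097 and 39190 CPM, and in the delta classes 7 delta markers to between 6864 and 8078 CPM. Alpha markers summed to between 355 and 1193 CPM in the beta classes. Beta markers summed to 56230, 45310 and 39950 CPM in the delta classes of WT, 1 week and 5 weeks, more than the delta markers there and, at 1 week, more than in the beta class itself. Their part in the delta values was not tested, and the share of *Iapp* in these sums was not separated. The median UMIs of beta cells were 1656 in WT, 24754.5 at 1 week and 3868 at 5 weeks.

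*Malat1* was the member that separated WT from 5-week beta cells most clearly. Beta cells held 4503 CPM of *Malat1* (4470 to 4536, 72228 UMIs) in WT, 24370 CPM (365532 UMIs) at 1 week and 11830 CPM (331048 UMIs) at 5 weeks, or 8.73, 650.4 and 58.2 UMIs per cell. Alpha cells held 12910, 24670 and 16370 CPM in the same order of libraries, and delta cells 18020, 28790 and 22850 CPM. In all 3 classes the order was WT, 5 weeks, 1 week, and the gap between libraries was widest in beta cells. The cells of a class varied broadly. Leaving out the highest and the lowest 10% of cells, single beta cells ran from 1526 to 8738 CPM in WT, from 9495 to 53050 CPM at 1 week and from 5880 to 23270 CPM at 5 weeks.

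*Meg3*, the imprinted lncRNA of the *Dlk1*-*Dio3* locus, held 272 CPM in WT, 750 CPM at 1 week and 310 CPM at 5 weeks in beta cells. In alpha cells it held 606, 975 and 597 CPM, and in delta cells 796, 2008 and 760 CPM. Within each library *Meg3* was lowest in beta and highest in delta cells, and in alpha and in delta cells the WT and 5-week intervals overlapped. A level of *Meg3* was also counted in cells set apart by non-endocrine transcripts: 206 CPM (155 to 270) in 124 WT cells with acinar transcripts at 10% or more of UMIs, 60 of them also in a hormone class, and 140 CPM (101 to 188) in 225 cells at 5 weeks that held at least 3 of the endothelial marker genes.

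*Neat1* had a different order of classes. In WT it held 59.5 CPM in beta (955 UMIs), 29.9 CPM in alpha (72 UMIs) and 65.8 CPM in delta cells (29 UMIs). At 5 weeks the values were 72.0, 28.9 and 52.0 CPM, and at 1 week 146, 324 and 219 CPM. Alpha cells were thus the lowest class for *Neat1* in WT and at 5 weeks and the highest at 1 week. The WT and 5-week intervals overlapped in alpha and in delta cells. *Neat1* stood at 117 CPM in the WT acinar cells and at 107 CPM in the 5-week endothelial cells, the first with an interval overlapping that of WT delta cells and the second overlapping that of 5-week beta cells.

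*Snhg11* was sparse. It held 15.02 CPM in beta (241 UMIs), 37.0 CPM in alpha (89 UMIs) and 34.0 CPM in delta cells (15 UMIs) of WT, and 25.5, 39.5 and 37.2 CPM at 1 week. At 5 weeks it held 7.04 CPM in beta (197 UMIs), 41.7 CPM in alpha (291 UMIs) and 44.8 CPM in delta cells (100 UMIs). The 3 alpha values overlapped one another, as did the 3 delta values, and the 3 beta values did not. The 5-week beta level was close to that of the 5-week endothelial cells, 6.49 CPM (0.786 to 23.4) from 2 UMIs.

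*Kcnq1ot1* held 44.6, 178 and 47.5 CPM in beta cells of WT, 1 week and 5 weeks. In alpha cells it held 90.2, 429 and 98.1 CPM, and in delta cells 141, 315 and 128 CPM. The WT and 5-week intervals overlapped in each of the 3 classes, and the 1-week value was above both. Beta cells were the lowest of the 3 hormone classes in every library. *Kcnq1ot1* stood at 31.1 CPM (13.5 to 61.4) in the WT acinar cells, overlapping WT beta cells, and at 74.6 CPM (47.3 to 112) in the 5-week endothelial cells. *Malat1* stood at 3585 CPM in the former and at 26530 CPM in the latter, above the 3 hormone classes at 5 weeks. The plot of levels by class and library shows the same values for all 5 lncRNAs.

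**Figure D1:**
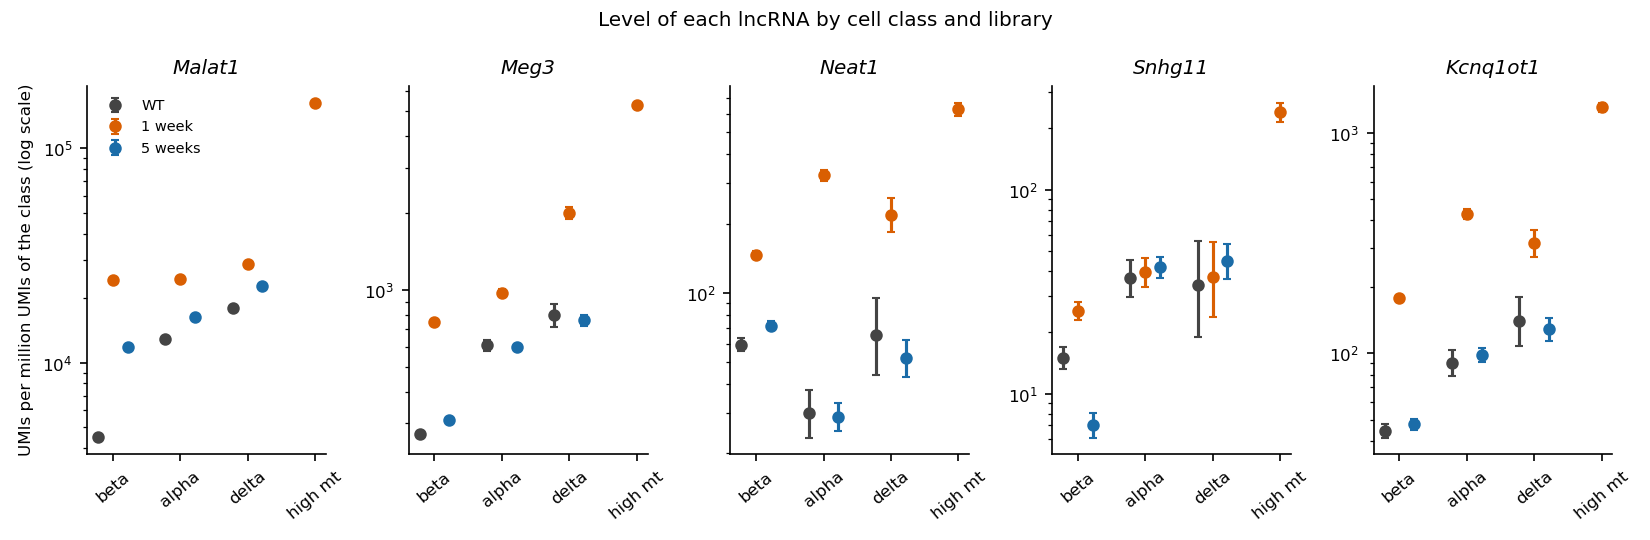
Level of each lncRNA in CPM of the class (log axis) in beta, alpha, delta and, for the 1-week library, high-mitochondrial ("high mt") cells. Each point is 1 library and bars are exact 95% Poisson intervals. WT and 5-week points lie farthest apart for *Malat1* and *Snhg11* in beta cells, and the high-mitochondrial cells hold the highest level of every lncRNA among these classes, 162200 CPM for *Malat1*.

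The comparison of 5-week mutant with WT beta cells asked which lncRNAs differ in the class to which the deletion was directed. *Malat1* was 2.63-fold higher at 5 weeks, a log2 ratio of 1.39 (1.38 to 1.41), above 97.9% of the 9203 genes with at least 100 UMIs in both classes together. *Snhg11* was lower, with a log2 ratio of -1.09 (-1.37 to -0.82). *Meg3*, *Neat1* and *Kcnq1ot1* differed by log2 ratios of 0.19, 0.27 and 0.09, the last with an interval that includes 0. So 1 of 5 lncRNAs was 2-fold or more higher and 1 of 5 lower, against 6.37% and 4.18% of all genes, and the median of the 5 was 0.19 against 0.18 for all genes.

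Over all alpha cells, whatever their depth, none of the 5 lncRNAs was 2-fold apart at 5 weeks. Of 5932 genes there, 3.20% were 2-fold or more higher than in WT and 1.23% lower. *Malat1* differed by a log2 ratio of 0.34 (0.32 to 0.36) and the other 4 by -0.05 to 0.17, all with intervals including 0. In delta cells none was 2-fold apart either, against 3.73% of 2895 genes higher and 1.62% lower. *Malat1* again stood at 0.34 (0.31 to 0.38) and the other 4 between -0.34 and 0.40 with intervals including 0. The interval of the *Malat1* ratio in beta cells does not overlap that in alpha or delta cells, and with 1 library per condition this difference between classes was not tested.

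Because *Malat1* in CPM was lower in deeper cells, cells of like depth were set side by side. Among beta cells of 1000 to 2000 UMIs, 4711 WT cells held 4875 CPM and 642 cells of the 5-week library held 19470 CPM, a 3.99-fold difference. Among those of 2000 to 5000 UMIs, 3032 WT cells held 4039 CPM and 2752 of the 5-week cells 13840 CPM, a 3.43-fold difference. The gap in *Malat1* was thus larger at like depth than over all beta cells. At 1000 to 2000 UMIs *Meg3*, *Neat1* and *Kcnq1ot1* also stood above WT, at log2 ratios of 0.46, 0.61 and 0.61. At 2000 to 5000 UMIs they stood at 0.48, 0.33 and 0.20, with intervals above 0 in both ranges. Under 1000 UMIs, in 207 cells at 5 weeks and 502 in WT, *Meg3* stood at 0.59 (0.255 to 0.92). *Neat1* stood there at 1.17 (0.44 to 1.89), from 32 and 38 UMIs, and *Kcnq1ot1* at 1.62 (0.69 to 2.56), from 23 and 20 UMIs. At 5000 to 10000 UMIs, with 26 WT cells, the intervals of these lncRNAs included 0. For alpha cells of 1000 to 2000 UMIs *Malat1* was 1.46-fold higher, 17700 against 12110 CPM. For delta cells of that depth it was 1.41-fold higher, 24250 against 17210 CPM. In the alpha cells of that depth *Neat1* was 1.91-fold higher, on 82 against 14 UMIs. The intervals of *Meg3*, *Snhg11* and *Kcnq1ot1* included 0. Among 314 alpha cells under 1000 UMIs at 5 weeks and 2176 in WT, *Malat1* was 1.99-fold higher and *Meg3* 1.77-fold. *Kcnq1ot1* was 2.48-fold and *Snhg11* 2.25-fold higher there, with 54 and 20 UMIs at 5 weeks, while the *Neat1* interval included 0. At 2000 to 5000 UMIs, with 27 WT alpha cells, *Malat1* alone had an interval above 0.

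*Snhg11* of 5-week beta cells varied in its ratio to WT between ranges of depth. In cells of 2000 to 5000 UMIs it was 9.89 CPM (91 UMIs) against 13.6 CPM in WT (117 UMIs), a log2 ratio of -0.46 (-0.87 to -0.05). In cells of 1000 to 2000 UMIs the ratio was -0.93 (-2.10 to 0.04), from 9 and 117 UMIs. In cells of 5000 to 10000 UMIs it was -1.92 (-3.334 to -0.002), from 73 UMIs in 1503 cells and only 4 UMIs in 26 WT cells. In cells under 1000 UMIs the ratio was 0.83 (-2.75 to 3.96), from only 2 and 3 UMIs. Thinning every cell to 500 UMIs gave -0.90, and keeping only cells within the study's limits on detected genes and mitochondrial share gave -0.84, both short of 2-fold. The plot of levels by depth shows both patterns.

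**Figure D2:**
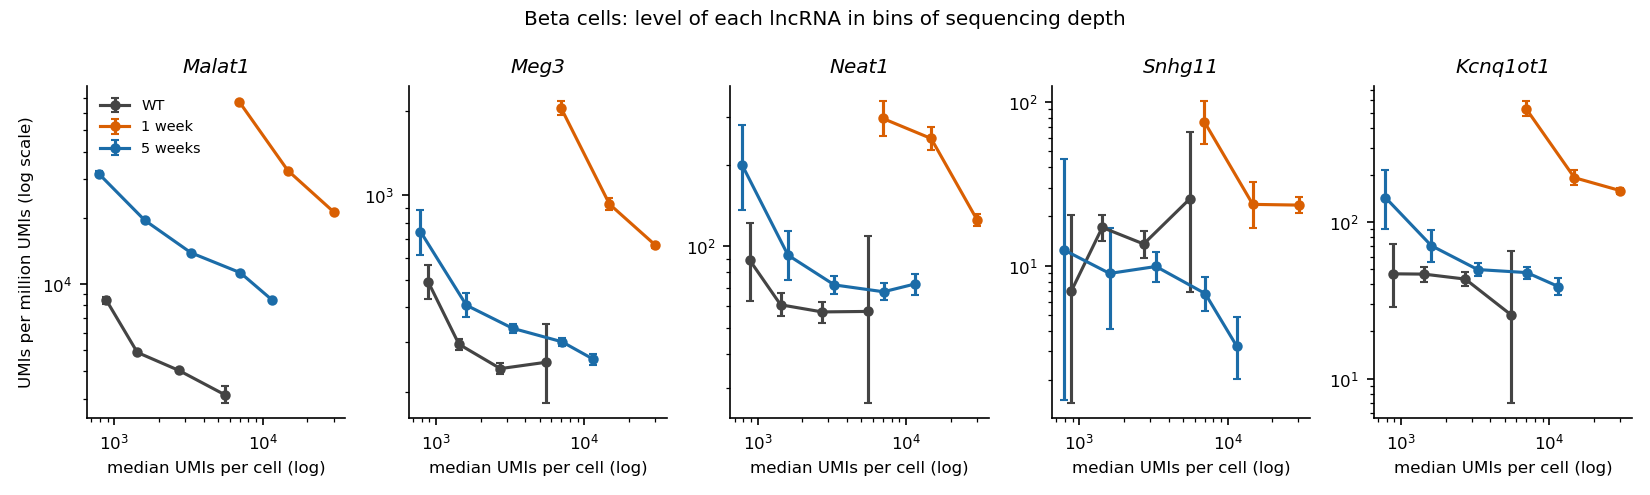
Level of each lncRNA in beta cells (CPM, log axis) against the median UMIs per cell of each depth bin (log axis), for bins with at least 20 cells. Lines join the bins of 1 library and bars are exact 95% Poisson intervals. *Malat1* falls from 31690 to 8469 CPM between the shallowest and deepest 5-week beta cells and stays above WT in every shared bin.

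The 1-week library was set against the same WT library, so these ratios share their denominator with those at 5 weeks. Beta cells of this library carried 42.8% of their UMIs as hormone transcripts, against 68.0% in WT and 66.3% at 5 weeks, and were much deeper. Most genes stood higher in CPM: 57.6% of 9227 genes were 2-fold or more higher and the median log2 ratio was 1.15. Relative to that median, *Malat1* stood 1.29 higher, *Kcnq1ot1* 0.84, *Meg3* 0.31 and *Neat1* 0.15 higher, and *Snhg11* 0.39 lower. Before that subtraction the log2 ratios were 2.44, 2.00, 1.46, 1.30 and 0.77, so 4 of 5 were 2-fold or more higher. With hormone transcripts left out of the counts, 2 of 5 were, *Malat1* at 1.60 and *Kcnq1ot1* at 1.16, and *Snhg11* stood at -0.07. Depth could be matched only at 5000 to 10000 UMIs, in 82 beta cells at 1 week and 26 in WT. There *Malat1* stood at 4.42 (4.295 to 4.554), *Kcnq1ot1* at 4.38, *Meg3* at 3.00, *Neat1* at 2.37 and *Snhg11* at 1.57 (0.11 to 3.50). The WT values of *Kcnq1ot1* and *Snhg11* rested on 4 UMIs each, and the share of all genes past 2-fold at this depth is not given here. The 1-week beta class shared 32 cells with the high-mitochondrial class. In that class 40 cells had 5000 to 10000 UMIs, and they held 37706 *Malat1* UMIs (139100 CPM). All 82 beta cells of that depth held 40023 *Malat1* UMIs (67190 CPM). The median of these beta cells was 39450 CPM and their 90th percentile 200500 CPM. The part of such shared cells in these depth-matched ratios was not tested.

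In 1-week alpha cells *Neat1* held 1204 UMIs in 175 cells against 72 UMIs in 2815 WT cells, a 10.8-fold higher level in CPM with a log2 ratio of 3.44 (3.09 to 3.80). That is above 99.5% of 5304 genes tested, of which 32.1% were 2-fold or more higher and whose median was 0.63. *Kcnq1ot1* was 4.75-fold higher, a log2 ratio of 2.25 (2.04 to 2.46), while *Malat1*, *Meg3* and *Snhg11* stood at 0.93, 0.69 and 0.10. The 2 of 5 past the limit were the same *Neat1* and *Kcnq1ot1* under each alternative that could be computed, with *Neat1* at 2.80 or more.

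In 1-week delta cells, of which there were 38, *Neat1* stood at a log2 ratio of 1.73 (1.15 to 2.36), *Meg3* at 1.34 (1.16 to 1.51) and *Kcnq1ot1* at 1.16 (0.75 to 1.60), 3 of the 4 members that reached 100 UMIs, against 20.9% of 1371 genes. *Malat1* stood at 0.68, and *Snhg11* had only 39 UMIs over both groups and a ratio of 0.13 (-0.86 to 1.17). The median of all genes was 0.35. Median-of-ratios scaling, which sets the median gene to 0, left 1 of 5 past 2-fold, *Neat1* at 1.38.

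**Figure D3:**
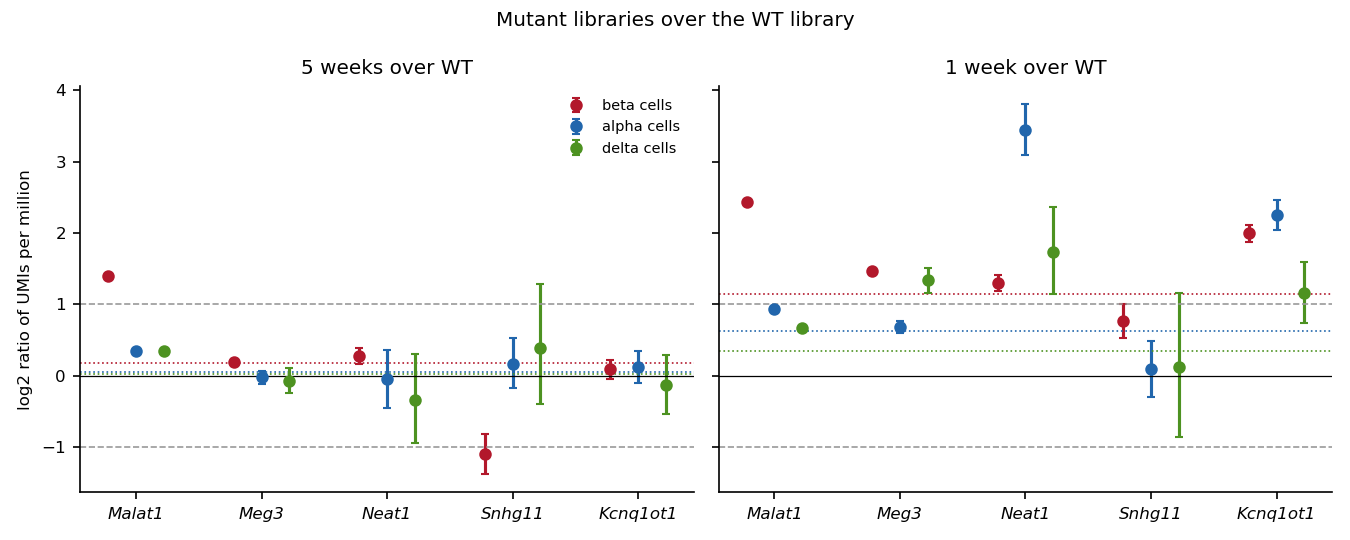
Log2 ratio of CPM, 5-week (left) and 1-week (right) over WT, for each lncRNA in beta, alpha and delta cells, with exact 95% intervals. Dashed lines mark 2-fold and dotted lines the median of all tested genes in each class. At 5 weeks only *Malat1* at 1.39 and *Snhg11* at -1.09, both in beta cells, are past 2-fold, and at 1 week *Neat1* in alpha cells is the highest point at 3.44.

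Among the 2295 barcodes at 1 week, 447 carried 15% or more of their UMIs as mitochondrial transcripts, 29.2% when summed. They had a median of 2987 UMIs, against 24754.5 in the beta class, with which they shared 32 cells. Their hormone share was 13.1%, and 10 beta markers other than *Ins2*, *Iapp* included, summed to 5992 CPM against 35330 CPM in the beta class. By the same hormone limits 294 of them had *Ins2* at 5% or more with *Gcg* under 3%, 5 had *Gcg* at 8% or more and 3 had *Sst* at 1.5% or more. The WT and 5-week tables held 0 cells at that limit.

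These cells held the highest level in CPM of every lncRNA among the classes of the 3 libraries. *Malat1* stood at 162200 CPM, so that 16.2% of their UMIs were *Malat1*, against 24370 CPM in beta cells of the same library. *Meg3* held 5283 against 750 CPM, *Kcnq1ot1* 1305 against 178 CPM, *Neat1* 627 against 146 CPM and *Snhg11* 240 against 25.5 CPM. The log2 ratios ran from 2.10 (1.99 to 2.21) for *Neat1* to 3.23 (3.02 to 3.45) for *Snhg11*. All 5 of 5 were 2-fold or more higher, against 20.9% of 8519 genes, and each was above at least 97.1% of all genes.

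Counted per cell, 4 of the lncRNAs were within 1.29-fold of the beta cells and *Neat1* was 2.00-fold lower. High-mitochondrial cells held 505 *Malat1* UMIs each on average against 650.4 in beta cells, 16.5 *Meg3* UMIs against 20, 4.07 *Kcnq1ot1* UMIs against 4.74, 1.95 *Neat1* UMIs against 3.90, and 0.747 *Snhg11* UMIs against 0.682. Over all RNA, a high-mitochondrial cell held 3114 UMIs on average and a beta cell 26685. The beta class took only cells of 5000 or more UMIs, and the high-mitochondrial class had no depth minimum. Part of this gap in depth was thus set by the class rules. Its part in the per-cell ratios was not tested, and those ratios cannot show a loss of RNA. Per cell 97.1% of 8519 genes were 2-fold or more lower, with a median log2 ratio of -3.18, whereas 0 of 5 lncRNAs were. *Neat1*, at -0.999 (-1.11 to -0.89), was just inside the limit, and *Snhg11*, at 0.13 (-0.08 to 0.35), was the member with an interval including 0.

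**Figure D4:**
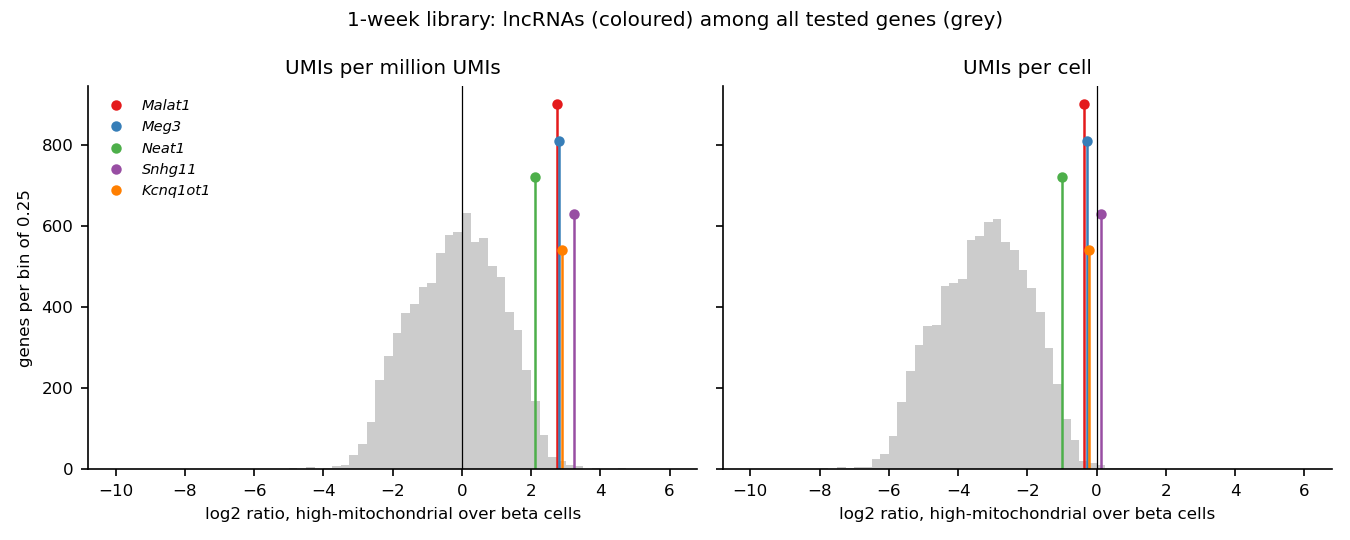
Log2 ratio of high-mitochondrial over beta cells of the 1-week library, in CPM (left) and per cell (right). Grey bars count tested genes in bins of 0.25 and coloured stems mark the 5 lncRNAs, their heights having no meaning. The lncRNAs lie at the right edge of the distribution on both scales, and on the per-cell scale between -0.999 and 0.13, while the median gene lies at -3.18. Beta cells were chosen at 5000 or more UMIs and high-mitochondrial cells without a depth minimum.

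The pattern was the same in high-mitochondrial cells with beta-like hormone content. The 294 cells with *Ins2* at 5% or more held 148900 CPM of *Malat1*, 4946 CPM of *Meg3*, 1074 CPM of *Kcnq1ot1*, 484 CPM of *Neat1* and 169 CPM of *Snhg11*. Against beta cells under 15% mitochondrial UMIs their log2 ratios of CPM were 2.70, 2.80, 2.71, 1.75 and 2.82. The 145 cells that met none of the hormone limits held higher levels, 188900 CPM of *Malat1* and 374 CPM of *Snhg11*.

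Along the mitochondrial share, within 1-week cells under 5000 UMIs, *Malat1* was higher with each bin up to 25% and lower above it. The 856 cells under 5% mitochondrial UMIs held 33.8 *Malat1* UMIs on average (42600 CPM). The 105 cells from 5% to 10% held 199 (153800 CPM) and the 49 cells from 10% to 15% held 363 (205600 CPM). The 136 cells from 15% to 25% held 562 (215200 CPM) and the 269 cells at 25% or more held 409 (148500 CPM). A minority of cells raised the first of these averages. Medians over the same bins were 5, 16, 139, 522 and 408 UMIs, and the 90th percentile of the first bin was 17. In the bin from 10% to 15%, outside the high-mitochondrial class, *Malat1* and *Neat1* (889 CPM) were above that class in summed CPM, but not in the median cell. *Meg3* averaged 0.829, 4.38, 6.96, 14.2 and 15.6 UMIs per cell over the same bins, with medians of 0, 1, 5, 12 and 14. These bins differ in depth too, with medians from 590 to 2931 UMIs, and depth and mitochondrial share cannot be told apart here. In cells of 5000 or more UMIs the 685 cells under 5% held 23220 CPM of *Malat1* and the 23 cells at 25% or more held 165300 CPM.

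Genes that work with these lncRNAs were described in the same comparison, from lists of known factors. Of 12 genes for nuclear speckle proteins, 9 were 2-fold or more higher in CPM in high-mitochondrial cells and 0 lower, with a median log2 ratio of 1.83 against -0.08 for all genes, of which 20.9% were higher and 27.2% lower. *Son*, a speckle scaffold, held 917 against 247 CPM, and *Pnisr*, a speckle-associated protein, 843 against 143 CPM. Of 9 paraspeckle protein genes 4 were higher and 1 lower, *Pspc1* at 2.31 and *Sfpq* at 2.03 being higher and *Hnrnpk* at -1.83 lower. Of 9 genes of nonsense-mediated decay, the pathway that degrades many spliced host RNAs of small nucleolar RNAs, 6 were higher, with *Smg1*, the kinase of the pathway, at 1.99. Of 92 ribosomal protein genes 85 were lower and 2 higher, with a median of -2.08. Per cell 10 of 12 speckle genes were 2-fold or more lower, against 97.1% of all genes, and their median of -1.27 lay above the -3.18 of all genes and below each of the 5 lncRNAs.

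The neighbours of the imprinted members were mostly too sparse to describe. Of the 5 genes listed for the *Dlk1*-*Dio3* locus only *Mirg*, an lncRNA that lies downstream of *Meg3*, passed 100 UMIs in this comparison. It held 66.8 CPM in high-mitochondrial and 7.34 CPM in beta cells, a log2 ratio of 3.19 (2.773 to 3.599) that is near the 2.82 of *Meg3*. Of the *Kcnq1* domain 4 genes passed, 0 of them higher and 1 lower, *Cd81* at -1.02, against 27.2% of all genes lower. Around *Malat1* and *Neat1* on chromosome 19, 3 genes passed and *Ltbp3*, a carrier protein of latent TGF-beta, was higher at 2.26.

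The remaining comparisons set the classes of 1 library against each other, and ask how the lncRNAs differ between islet cell types. In CPM, alpha cells of WT were 2-fold or more higher than beta cells for 4 of 5 lncRNAs, against 20.4% of all genes. *Malat1* stood at a log2 ratio of 1.52, *Snhg11* at 1.30, *Meg3* at 1.16 and *Kcnq1ot1* at 1.02, while *Neat1* stood at -0.99. WT beta cells carried 68.0% of their UMIs as hormone transcripts and alpha cells 41.6%. Without those transcripts *Malat1* stood at 0.65, *Meg3* at 0.29, *Snhg11* at 0.43 and *Kcnq1ot1* at 0.15, none of them past 2-fold, and *Neat1* at -1.86.

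In UMIs per cell, WT alpha and beta cells held like amounts of *Meg3* (0.518 and 0.527), *Kcnq1ot1* (0.0771 and 0.0865) and *Snhg11* (0.0316 and 0.0291). Their intervals of the ratio include 0. *Malat1* was at 11.04 in alpha and 8.73 in beta cells, although alpha cells held 855 UMIs on average and beta cells 1940. *Neat1* was at 0.0256 in alpha and 0.116 in beta cells, a log2 ratio of -2.18 (-2.54 to -1.83).

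At 5 weeks alpha cells were 2-fold or more higher than beta cells for *Snhg11*, with a log2 ratio of 2.57 (2.30 to 2.83), and for *Kcnq1ot1* at 1.05, and lower for *Neat1* at -1.32 (-1.53 to -1.11). That is 2 of 5 higher against 18.9% of all genes and 1 of 5 lower against 2.67%. *Snhg11* was above 97.6% of genes and *Neat1* above 1.69%. *Snhg11* stayed 2-fold or more higher in alpha cells per cell (1.34) and without hormone transcripts (1.93), and *Neat1* stayed lower (-2.54 and -1.95). *Kcnq1ot1* stood at 0.41 without hormone transcripts and at -0.18 per cell.

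At 1 week alpha cells held more *Neat1* than beta cells, with a log2 ratio of 1.15 (1.04 to 1.25), and more *Kcnq1ot1*, at 1.27 (1.18 to 1.36). These were 2 of 5 against 8.03% of genes, the other 3 standing between 0.02 and 0.63. The direction for *Neat1* was thus the opposite of that in WT and at 5 weeks. Without hormone transcripts *Neat1* stood at 0.78 and *Kcnq1ot1* at 0.90, and per cell at 0.82 and 0.94, so the direction held and the 2-fold limit was not reached.

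*Neat1* UMIs were unevenly spread over 1-week cells. In alpha cells the 18 of 175 cells with the most *Neat1* held 44.6% of its UMIs, with up to 67 UMIs in a cell and a median of 4. In beta cells the top 57 of 562 cells held 40.7%, with a median of 2. For *Malat1* the same numbers of cells held 21.5% and 23.0% of its UMIs, and for *Kcnq1ot1* 28.3% and 31.8%. The sparser *Snhg11* was more uneven, at 80.3% and 70.2%. How much of these shares comes from sparse counts was not tested. In the other libraries most cells had no *Neat1* UMI, so its spread cannot be described there.

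Delta cells were higher than beta cells in CPM for *Malat1* (2.00), *Kcnq1ot1* (1.66), *Meg3* (1.55) and *Snhg11* (1.18) in WT, 4 of 5 against 46.6% of genes. Without hormone transcripts 0 of 5 were 2-fold apart. At 1 week 1 of 5 was higher, *Meg3* at 1.42 (1.337 to 1.504), against 17.5% of genes. At 5 weeks 3 of 5 were higher, *Snhg11* at 2.67 (2.31 to 3.02), *Kcnq1ot1* at 1.43 and *Meg3* at 1.30, against 45.1% of genes. Of these, *Snhg11* was the one that stayed past 2-fold without hormone transcripts, at 1.72, and *Neat1* then stood at -1.42.

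Beta cells of each mutant library were also split by the level of a stress transcript. *Ddit3* encodes CHOP, a transcription factor induced by endoplasmic reticulum stress, and *Herpud1* a protein of the degradation of misfolded proteins. At 1 week the 188 beta cells with the most *Ddit3* (4860 CPM of it) held 267 CPM of *Neat1* and the 188 with the least (129 CPM) held 70.6 CPM, a 3.78-fold difference and a log2 ratio of 1.92 (1.75 to 2.09). *Malat1* was higher in the same cells, 30790 against 19530 CPM, a log2 ratio of 0.66. *Meg3*, at 660 against 803 CPM, and *Kcnq1ot1*, at 151 against 195 CPM, were lower, with log2 ratios of -0.28 and -0.37, and *Snhg11* stood at 0.08 (-0.28 to 0.44). The split also separated other features: *Ins2* made up 23.0% and 49.0% of UMIs and mitochondrial transcripts 1.88% and 4.68%, with medians of 22830.5 and 24553 UMIs.

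At 5 weeks the 1895 beta cells with the most *Herpud1* (1187 CPM) held 100.4 CPM of *Neat1* and the 1895 with the least (48.9 CPM) held 47.0 CPM, a log2 ratio of 1.10 (0.92 to 1.27). *Malat1* stood at 13360 against 11240 CPM (0.25), *Meg3* at 311 against 319 CPM (-0.04, interval including 0) and *Kcnq1ot1* at 39.5 against 56.2 CPM (-0.51). *Ins2* and mitochondrial shares were near equal in both, 55.6% against 58.2% and 3.25% against 3.26%. In WT, 5729 of 8271 beta cells had no UMI of *Jun* or *Fosb*, immediate early genes, and the 2542 cells with one held 62.9 CPM of *Neat1* against 57.8 CPM, a log2 ratio of 0.12 (-0.07 to 0.32). The stress transcripts differ between the 3 libraries, so these ratios are not comparable with one another.

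**Figure D5:**
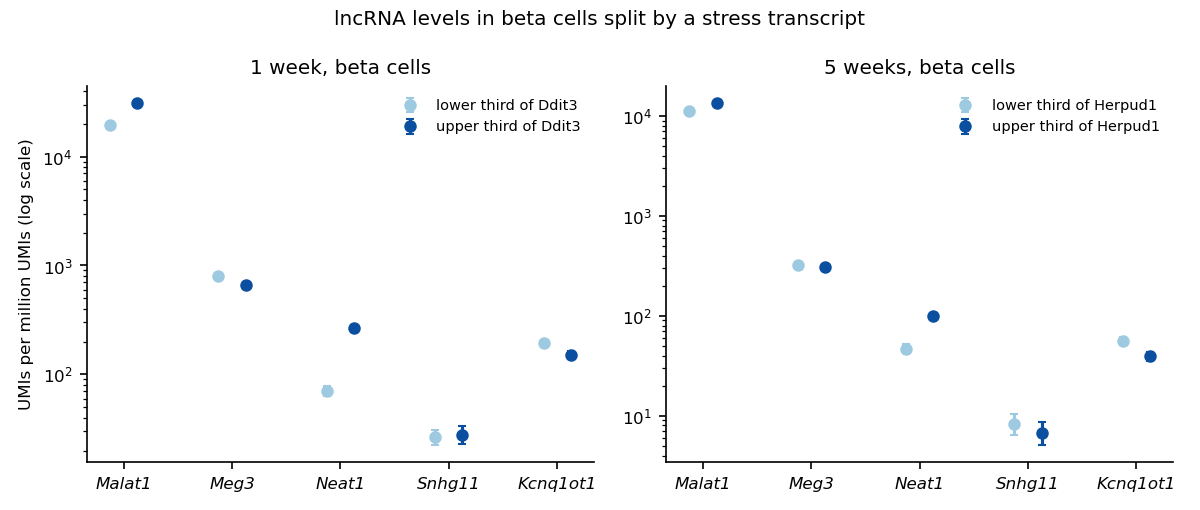
Level of each lncRNA (CPM, log axis) in the beta cells with the least and the most *Ddit3* at 1 week (188 cells each) and with the least and the most *Herpud1* at 5 weeks (1895 cells each), with exact 95% Poisson intervals. *Neat1* shows the widest gap in both libraries, 70.6 and 267 CPM at 1 week, while *Kcnq1ot1* lies lower in the cells with more of the stress transcript in both, and *Meg3* at 1 week only, its 5-week intervals overlapping.

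Across single cells, only *Malat1* and *Meg3* had counts high enough to describe. In 562 beta cells of the 1-week library, each thinned to 5000 UMIs, the Spearman correlation was 0.37 between *Malat1* and *Meg3* and -0.40 between *Malat1* and *Ins2*. Medians were 116.5 *Malat1*, 3 *Meg3* and 1486.5 *Ins2* UMIs. *Ins2* thus takes a large part of a fixed total, and its part in the negative value was not tested. The 32 cells shared with the high-mitochondrial class were kept. In 2084 beta cells at 5 weeks, with a median of 1 *Meg3* UMI, the 2 correlations were 0.19 and -0.23. At 1 week *Malat1* and *Meg3* were both lower in beta cells with more UMIs before thinning, with correlations of -0.33 and -0.36. In 175 alpha cells at 1 week the correlation of *Malat1* was 0.14 with *Meg3*, 0.285 with *Ins2* and -0.25 with *Gcg*. All cells of a class share 1 library, and *Neat1*, *Snhg11* and *Kcnq1ot1* were too sparse per cell for such values to be read.

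Over the 10 groups of cells, genes were ranked by the Pearson correlation of log2(CPM + 1) with each lncRNA, among 2023 genes with at least 20 UMIs in every group. The groups share 3 libraries, so these values describe likeness only. The high-mitochondrial cells lie far from the other groups, with *Malat1* at 162200 CPM against 28790 CPM in the next highest, 1-week delta cells. The weight of that group in the correlations was not tested. *Snhg11* itself, with 15 UMIs in WT delta cells, fell short of the 20-UMI minimum. The genes most like *Malat1* were *Snrnp70* (0.99), the U1 snRNP protein, *Ccar1* (0.99) and *Ccnl2* (0.97), a cyclin linked to splicing. Those most like *Meg3* were *BC005561* (0.985), *Luc7l2* and *Zranb2* (0.98), and those most like *Kcnq1ot1* were *R3hdm1*, *Luc7l3* and *Dnmt3a* (0.99). *Snhg11* was closest to *Zcchc7* (0.96), *Srek1* and *Clk1* (0.95), and *Neat1* to *Eif4g1* (0.93), *Arhgef12* (0.92) and *Grina* (0.91). Among the lncRNAs themselves, *Meg3* and *Kcnq1ot1* were most alike (0.95) and *Neat1* and *Snhg11* least (0.51).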

How the data were processed

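Single islet cells were profiled with the 10X Genomics Chromium 3′ assay, 1 library each for WT, 1 week and 5 weeks after inactivation. The deposited values are raw UMI counts per gene and cell barcode. The submitters' processing notes name bcl2fastq 2.17.1.14, Cell Ranger 3.1, Seurat 3.1.4 and mm10, and per the study's methods doublets were removed from the WT data alone, which were then reduced to 12000 cells.

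Counts were summed over the cells of a class and given as CPM (per 1000000 UMIs of the class) or per cell. No doublet caller was run, cells that met more than 1 class rule stayed in each, and leaving them out is among the alternatives. Intervals are exact Poisson intervals for levels and exact conditional intervals for ratios, at 95%, for counting error alone. No test was made, since each condition is a single library, and a gene counts as higher or lower at 2-fold or more if both groups together hold 100 UMIs. A count of 0 allows up to 3 UMIs, at most 6.80 CPM in a class. Intervals and thinning were tested on simulated data. Scripts used Python 3.11.15, numpy 2.4.6, scipy 1.17.1, pandas 2.3.3 and matplotlib 3.10.9. Sequences and gene positions are from RefSeq on GRCm38.p6, in which 4 of the 5 measured lncRNAs had a promoter entry.

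The lncRNAs, the gene lists and the splits by stress transcript were chosen with earlier results of these data known. Genes named are the lncRNAs, the 3 most alike genes of each, up to 4 genes of a list per comparison and the checks of the labels. The alternatives were other scalings, the study's limits of 200 to 1500 detected genes and under 15% mitochondrial UMIs, other class limits and depths, thinning each cell to 500 UMIs (seed 0), and a lower count minimum. UMIs per cell, high-mitochondrial cells with *Ins2* only and cells of like depth were added after seeing the data. Most WT beta cells had no UMI of *Jun* or *Fosb*, so cells with and without one were compared there.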

Additional observations from a re-analysis of the deposited data

Results flagged for a closer look

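*Snhg11* in beta cells stood on opposite sides of WT in the mutant libraries: its log2 ratio of CPM was -1.09 (-1.37 to -0.82) at 5 weeks and 0.77 (0.53 to 1.00) at 1 week. Both ratios use the same WT library, and relative to the median of all genes the 1-week value is -0.39. The difference was not tested.

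*Neat1* in alpha cells stood below beta cells in WT, at a log2 ratio of -0.99 (-1.36 to -0.65), and at 5 weeks, at -1.32 (-1.53 to -1.11), and above beta cells at 1 week, at 1.15 (1.04 to 1.25). In delta cells *Neat1* stood above beta cells at 1 week, at 0.58 (0.32 to 0.83), and below them at 5 weeks, at -0.47 (-0.75 to -0.20). These differences between libraries were not tested.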

How the results depend on the processing

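Of 132 counts of lncRNAs past 2-fold under the alternatives, 109 stayed within 1.5 times the reported count. For 5-week against WT beta cells the count of 2 became 1, *Malat1* alone, with the mean of each cell's own level, under the study's limits on genes and mitochondrial share, thinned to 500 UMIs, and in cells of 2000 to 5000 or 1000 to 2000 UMIs. For 1-week against WT the count fell from 4 to 2 without hormone transcripts and to 1 with median-of-ratios scaling in beta cells, and from 3 to 1 with that scaling in delta cells. Without hormone transcripts the counts against beta cells fell to 1 (*Neat1*, lower) for WT alpha cells, and to 0 for 1-week alpha, WT delta and 1-week delta cells. Median-of-ratios scaling gave 1 for WT alpha, 1 for WT delta and 0 for 1-week delta cells, and the mean of each cell's level and no depth minimum each gave 0 for 1-week alpha cells. The cause of these shifts was not tested.

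Per cell the counts were 0 for high-mitochondrial, 1-week alpha and 1-week delta cells and 1 for WT alpha, WT delta and 5-week delta cells. On that scale 10 ratios past 2-fold changed direction: -0.37, -0.28, -0.999 and -0.22 for *Malat1*, *Meg3*, *Neat1* and *Kcnq1ot1* in high-mitochondrial cells, -0.024 for *Meg3* and -0.17 for *Kcnq1ot1* in WT alpha, -0.18 for *Kcnq1ot1* in 5-week alpha, -0.27 for *Snhg11* in WT delta, and -0.37 for *Meg3* and -0.24 for *Kcnq1ot1* in 5-week delta cells. The scale itself divides by cells in place of UMIs. That scale, the *Ins2*-containing high-mitochondrial cells and the depth ranges were added after seeing the data. Under the other alternatives 0 ratios past 2-fold changed direction, while a smaller one could cross 0, as *Snhg11* in 1-week against WT beta cells did, from 0.77 to -0.07 without hormone transcripts. Of 672 ratios, 402 moved by less than their counting interval. Counting genes with at least 1 UMI moved the share of genes past 2-fold from 4.43% to 60.1% over the comparisons to 24.6% to 69.8%.

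The study's limits left 17 beta, 1 alpha, 1 delta and 0 high-mitochondrial cells at 1 week, so no value was computed there, nor for 1-week delta cells under the WT limits (18 cells) or with *Snhg11* at 0 after thinning. No paired analysis was possible because each group is 1 library. Depth limits *Snhg11* most, with 15 UMIs in WT delta cells.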

Other observations

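Other lncRNAs and hosts of small nucleolar RNAs differed between the libraries as well. Of 22 other lncRNAs on a list, 10 passed 100 UMIs in the comparison of 5-week with WT beta cells, 1 of these 2-fold or more higher and 1 lower, against 6.37% and 4.18% of all genes. *Gm42418* was higher, with 1703 against 356 CPM in beta cells (a log2 ratio of 2.26), 2809 against 820 CPM in alpha cells (1.78) and 4687 against 1249 CPM in delta cells (1.91). *Xist*, the RNA of X inactivation, was the lower one, with 9 UMIs in 5-week and 10793 in WT beta cells. In alpha cells *Xist* had 0 UMIs at 5 weeks against 4977 in WT.

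Of 7 hosts of small nucleolar RNAs in both tables, *Snhg6* was higher and *Snhg18* lower in 5-week than in WT beta cells, at log2 ratios of 1.22 (0.75 to 1.72) and -1.25 (-1.63 to -0.87), beside the same shares of all genes. At 1 week *Snhg6* stood at 37.7 CPM in beta cells against 2.87 CPM in WT (3.72) and at 180 CPM in alpha cells against 6.23 CPM (4.85), and *Epb41l4aos*, an antisense transcript, at 129.5 CPM in alpha cells against 14.96 CPM (3.11). These 1-week ratios stand beside medians of all genes of 1.15 in beta and 0.63 in alpha cells. In high-mitochondrial cells *Snhg6* stood below beta cells of the same library at -1.47 and *Snhg20* above them at 2.11.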
